A study of Mus musculus with 6 samples.

Results

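The brush border is the carpet of microvilli on the luminal face of intestinal absorptive cells. Each microvillus is a bundle of actin filaments, held together by bundling proteins, tied to the membrane by linkers and motors, and joined to its neighbours at the tip by protocadherins. Those protocadherins are anchored inside the cell by harmonin, and the whole assembly spaces and lengthens the microvilli as colonocytes move towards the surface of the crypt. Transcripts of 10 genes for these structures were followed here: Vil1, Espn, Eps8 and Ezr of the actin bundle and its membrane link, the motors Myo1a and Myo7b, the adhesion genes Cdhr2, Cdhr5 and Ush1c, and Krt20, a keratin of surface colonocytes. They were chosen by name for their function, with earlier results of these data known. Each was read by the only probe set that named it alone, out of 19936 genes measured.

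The series compared colon epithelium of male mice aged 8 weeks on the C57BL/6J background, with 3 arrays from mice lacking Sel1L in enterocytes (Sel1L-delta-IEC) and 3 arrays from wild type mice. Sel1L is the adaptor of an endoplasmic reticulum degradation complex, and the study's title names the stress sensor IRE1alpha as a substrate of that degradation. In the knockout, Cre recombinase under the villin-1 promoter cut out exon 6 of Sel1l between loxP sites, so the promoter of a gene studied here also set where the deletion occurred. The floxed allele, Sel1ltm1e(KOMP)Wtsi, had lost its lacZ-neo cassette in βActin-FLPe mice, and the Cre line, B6.SJL-Tg(Vil-cre)997Gum/J, had been backcrossed to C57BL/6J. Whether the wild type mice carried floxed alleles or Cre, and whether each array stands for 1 mouse, is not given in the labels, so the p-values refer to arrays and the spread among them may be technical. Values are log2 expression after RMA, a method that corrects background, normalizes between arrays and summarises probes.

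Sel1l read 8.70, 9.06 and 8.66 on the knockout arrays, against 9.45, 9.67 and 9.54 on the wild type arrays. All knockout arrays lay below all wild type arrays, and limma's adjusted p was 0.018, with 0.013 to 0.087 when 1 array was left out. Its probe set was not mapped to the deleted exon, so this level says little of how many cells lost the gene. All 10 epithelial markers, among them Epcam and Cdh1, lay above the array median of 6.34, and their signal, summed off the log scale, was 49723 to 51534 in the knockout and 49407 to 53194 in wild type. Markers of other tissue layers were mostly dim: of 8 each, 1 lay above that median for smooth muscle, 1 for endothelium, 1 for macrophages and dendritic cells and 4 for fibroblasts. In bulk epithelium, fewer cells of a type and less RNA per cell cannot be told apart.

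None of the 10 brush border genes was called by limma at an adjusted p under 0.05, where 1.63% of all genes were called and 0.712% were called lower in the knockout. At an unadjusted p under 0.05 there were 2, Cdhr2 and Cdhr5, both lower in the knockout, against 13.3% of all genes in either direction and 5.62% in that direction. The same pair were the members whose 3 knockout arrays all lay below the 3 wild type arrays, as did 7.98% of all genes. With an intensity trend in limma's variance prior both passed, while 3.08% of all genes were then called. Over all settings tried, limma's adjusted p ran from 0.046 (the trend) to 0.31 for Cdhr2 and from 0.028 (the trend) to 0.28 for Cdhr5. Without the dimmest 50% of genes Cdhr5 also passed (limma adjusted p = 0.044), where 6.00% of the 9968 genes tested were called. The median change of the 10 was -0.12 on the log2 scale, knockout minus wild type, beside 0.018 over all genes, and 8 of the 10 changes were below 0, as were 42.8% of all genes. All 10 remained when the dimmest 50% of genes were left out, and the median over the genes kept was 0.0028. The share below 0 was not counted there.

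**Figure D1:**
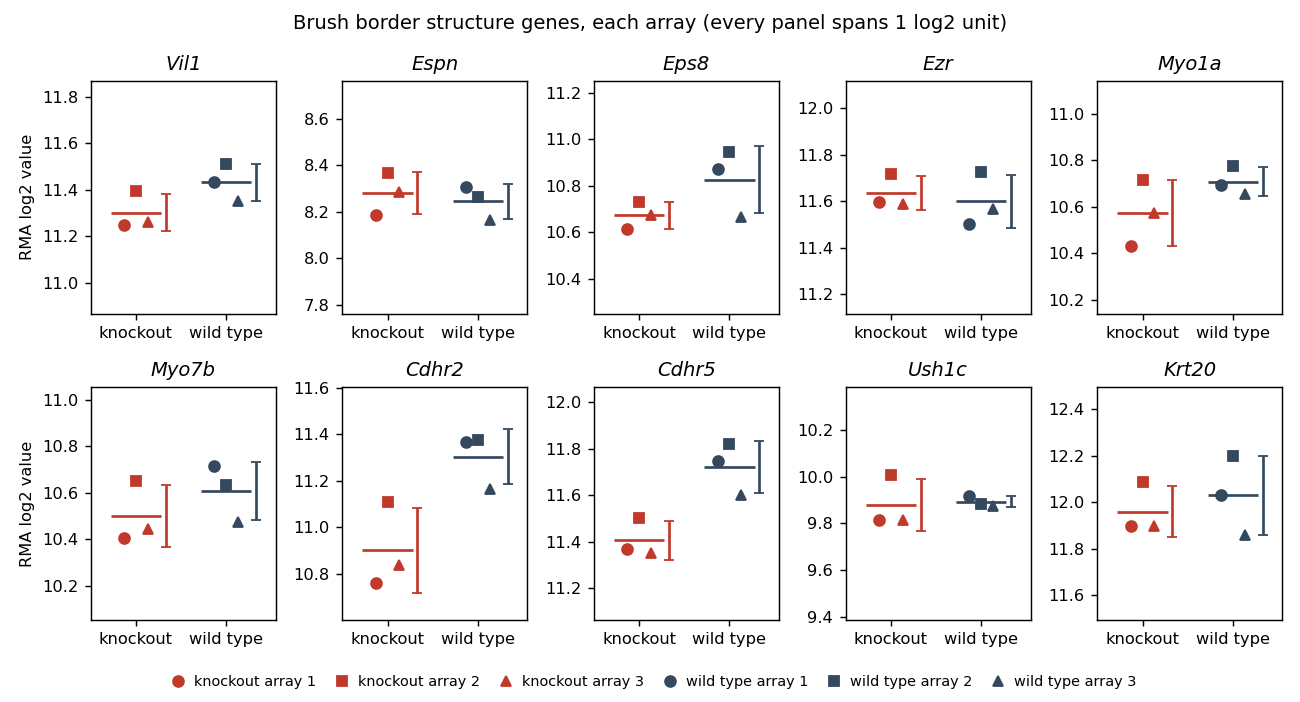
RMA log2 value of each brush border gene on the 3 knockout arrays (red) and the 3 wild type arrays (dark grey), with the mean as a line and the SD as a bar (n = 3 each). Every panel spans the same range, and the groups are apart only for Cdhr2 and Cdhr5.

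Among the genes of the actin bundle, villin (Vil1), which bundles and can sever actin filaments, read 11.25, 11.40 and 11.26 in the knockout and 11.43, 11.51 and 11.35 in wild type. Knockout array 2 lay within the wild type range, so the groups overlapped, and the difference of -0.13 ± 0.071 (SE) did not pass (limma adjusted p = 0.49). Eps8, which caps and bundles actin at microvillar tips, read 10.62, 10.73 and 10.67 in the knockout and 10.87, 10.94 and 10.67 in wild type. Wild type array 3 fell among the knockout arrays, and the difference was -0.15 ± 0.082 (limma adjusted p = 0.49). Both 95% intervals included 0, at -0.29 to 0.030 for Vil1 and -0.34 to 0.036 for Eps8.

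Espin (Espn), a cross-linker that packs the filaments into parallel bundles, read 8.19, 8.37 and 8.28 in the knockout and 8.31, 8.26 and 8.16 in wild type. Ezrin (Ezr), which ties the bundle to the membrane, read 11.60, 11.72 and 11.59 in the knockout and 11.50, 11.73 and 11.57 in wild type. The groups were interleaved for both genes, and both differences were 0.035, with 95% intervals of -0.13 to 0.20 for Espn and -0.14 to 0.21 for Ezr (limma adjusted p = 0.89 and 0.90). Shifts within those bounds could not be told from 0 with 3 arrays a group.

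The Vil1 start region is shown because the villin-1 promoter drove the deletion. It covers 250 bases before to 50 after the start from RefSeq on GRCm38.p6, at chr1:74409134-74409433 on the plus strand, and capitals mark a CArG box, the element bound by serum response factor, which is known for driving cytoskeletal genes. The extent of promoter sequence in the Cre transgene is not given in the sources used here.
Vil1: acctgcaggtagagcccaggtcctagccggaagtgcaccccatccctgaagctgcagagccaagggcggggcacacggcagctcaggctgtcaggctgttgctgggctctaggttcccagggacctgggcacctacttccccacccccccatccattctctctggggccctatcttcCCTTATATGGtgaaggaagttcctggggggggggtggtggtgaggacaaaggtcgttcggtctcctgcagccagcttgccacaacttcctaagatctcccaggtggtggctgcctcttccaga
The box began 73 bases before the start site, and 1.63% of 32851 such windows held one on either strand. Windows were found for 8 of the 10 genes (all but Eps8 and Myo7b), and Vil1 was the only one of the 8 with this box. A match of letters is a description and not a binding site. Srf itself, which encodes serum response factor, differed by -0.0085 ± 0.057 and was not called (limma adjusted p = 0.97; named after its values were seen).

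The motors gave small differences. Myo1a, the myosin that links the bundle sideways to the membrane, read 10.43, 10.72 and 10.57 in the knockout and 10.69, 10.78 and 10.65 in wild type. Myo7b, the motor that places the adhesion complex at the tips, read 10.40, 10.65 and 10.44 in the knockout and 10.72, 10.63 and 10.47 in wild type. For both, knockout array 2 lay inside the wild type range and the other knockout arrays lay below all wild type arrays. The difference was -0.13 ± 0.082 for Myo1a and -0.11 ± 0.090 for Myo7b (limma adjusted p = 0.55 and 0.68).

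Of the 3 adhesion genes, Cdhr2 and Cdhr5 were lower on all knockout arrays, and Ush1c was not. Cdhr2, also called protocadherin 24, is a tip link protein whose ectodomain binds that of Cdhr5 on the next microvillus. It read 10.76, 11.11 and 10.84 in the knockout, against 11.37, 11.38 and 11.17 in wild type. All knockout arrays were lower, with knockout array 2 next to wild type array 3. The difference was -0.40 ± 0.10, a level 24.3% lower in the knockout, with a 95% interval of -0.64 to -0.17 (limma adjusted p = 0.12).

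Its partner Cdhr5, the mucin-like protocadherin, read 11.37, 11.50 and 11.35 in the knockout, against 11.75, 11.82 and 11.60 in wild type. The groups were again separate, with the same arrays nearest to each other. The difference was -0.32 ± 0.077, a level 19.6% lower in the knockout, with a 95% interval of -0.49 to -0.14 (limma adjusted p = 0.11). With each array left out in turn, neither gene was called, and the change ran from -0.51 to -0.33 for Cdhr2 and from -0.38 to -0.27 for Cdhr5.

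Ush1c, which encodes harmonin, the scaffold that holds both protocadherins and Myo7b together, read 9.81, 10.01 and 9.81 in the knockout and 9.92, 9.89 and 9.87 in wild type. Knockout array 2 was the highest of all 6 arrays and the other knockout arrays the lowest. The difference was -0.014 ± 0.071, with a 95% interval of -0.18 to 0.15 (limma adjusted p = 0.955).

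The complex has 2 further parts that were not among the 10. Calml4, a calmodulin-like light chain of Myo7b, read 9.91, 9.99 and 9.96 in the knockout, against 10.31, 10.65 and 10.56 in wild type. The groups did not overlap, and it fell by 0.55 ± 0.090 on the log2 scale, a level 31.7% lower in the knockout (limma adjusted p = 0.026). The call was kept without wild type array 1 and lost with any other single array left out, with adjusted p from 0.025 to 0.11 over the 6 fits. Anks4b, an ankyrin repeat protein that binds harmonin and was named after its values were seen, differed by -0.13 ± 0.087, and its groups overlapped (limma adjusted p = 0.58).

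Within an array, the deviations of Cdhr2 and Cdhr5 were set against those of the other 8 genes. This grouping followed from their values, so it is a description with no test. A deviation is an array's log2 value less the gene's mean over the 6 arrays. The mean deviation of the pair less that of the other 8 was -0.16, -0.10 and -0.17 on the knockout arrays and 0.17, 0.16 and 0.11 on the wild type arrays. The arrays of each genotype lay closer together on this difference than on Cdhr2 or Cdhr5 alone. For Calml4 less the same 8 genes it was -0.21, -0.32 and -0.20 on the knockout arrays and 0.027, 0.31 and 0.39 on the wild type arrays. There the arrays of each genotype lay no closer together than on Calml4 alone.

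The start regions of the tip link pair and of Calml4 are shown because, of the genes named above for the adhesion complex, these changed most towards lower values in the knockout. They come from RefSeq on GRCm38.p6, at chr13:54701213-54701512 on the plus strand for Cdhr2, chr7:141276737-141277036 on the minus strand for Cdhr5 and chr9:62857854-62858153 on the plus strand for Calml4. Each is printed along the gene's own strand, and capitals mark CAAAGTC, the core recognised by HNF4 factors, or CATAAA, a form recognised by CDX factors. Both families are known as regulators of enterocyte genes.
Cdhr2: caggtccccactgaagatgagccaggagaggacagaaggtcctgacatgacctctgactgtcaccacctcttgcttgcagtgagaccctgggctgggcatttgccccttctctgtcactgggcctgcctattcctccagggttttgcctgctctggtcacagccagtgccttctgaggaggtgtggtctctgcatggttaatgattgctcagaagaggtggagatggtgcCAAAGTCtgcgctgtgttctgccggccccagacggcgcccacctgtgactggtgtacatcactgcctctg
Cdhr5: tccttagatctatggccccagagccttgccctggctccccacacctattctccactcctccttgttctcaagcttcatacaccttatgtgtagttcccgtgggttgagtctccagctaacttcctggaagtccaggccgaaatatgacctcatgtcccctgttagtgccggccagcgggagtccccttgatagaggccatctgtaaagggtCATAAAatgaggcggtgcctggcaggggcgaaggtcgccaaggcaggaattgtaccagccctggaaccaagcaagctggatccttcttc
Calml4: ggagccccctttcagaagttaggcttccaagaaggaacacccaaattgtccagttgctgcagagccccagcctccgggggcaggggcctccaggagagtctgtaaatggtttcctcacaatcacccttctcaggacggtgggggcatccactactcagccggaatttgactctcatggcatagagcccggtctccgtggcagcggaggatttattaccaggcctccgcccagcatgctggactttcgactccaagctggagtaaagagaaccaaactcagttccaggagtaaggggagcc
The Cdhr2 window held CAAAGTC beginning 20 bases before the start site, a motif found on either strand in 4.44% of all windows and in no other of the 8 genes with a window. The Cdhr5 window held CATAAA beginning 39 bases before the start site, found in 11.8% of all windows and, among the 8 genes, also in Espn. The Calml4 window held none of the motifs searched, which also included TATAAA, found in 13.6% of all windows and among the 8 genes in Krt20. No motif was common to the Cdhr2 and Cdhr5 windows. Their GC content was 58.0% and 55.0%, near the median of 52.7% over all windows.

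Krt20, the keratin that marks colonocytes at the crypt surface, read 11.90, 12.09 and 11.90 in the knockout and 12.03, 12.20 and 11.86 in wild type. The groups overlapped, with wild type array 3 the lowest of all. The difference was -0.070 ± 0.097, with a 95% interval of -0.29 to 0.15 (limma adjusted p = 0.82).

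**Figure D2:**
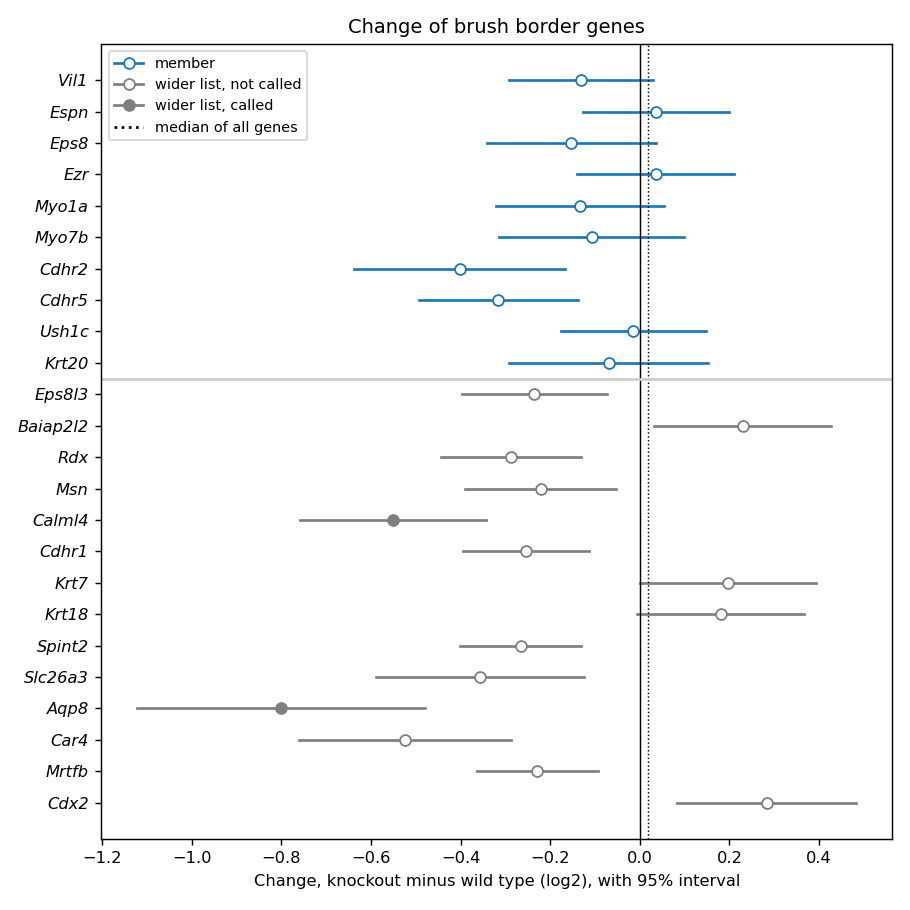
Change in log2 expression, knockout minus wild type, with limma's 95% interval, for the 10 members (blue) and for genes of the wider list with the smallest p in each group (grey, filled where called). Of the members, only the intervals of Cdhr2 and Cdhr5 exclude 0, and the called genes Calml4 and Aqp8 lie further to the left.

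Arrays of 1 genotype differed from each other in a way most members followed. Knockout array 2 was the highest knockout array for 10 of 10 genes, as it was for 34.0% of all genes. Wild type array 3 was the lowest wild type array for 9 of 10, as it was for 30.5% of all genes, with Ezr the exception. The mean deviation of the 10 genes was -0.14, 0.055 and -0.10 on the knockout arrays and 0.085, 0.14 and -0.036 on the wild type arrays, so the groups overlapped. The markers of crypt stem and cycling cells, 9 measured with 8 above the array median, had a summed signal of 4369, 3409 and 4013 on the knockout arrays and 4289, 4189 and 4249 on the wild type arrays. Their lowest array was thus knockout array 2, where the brush border genes were highest among knockout arrays, and the part of this in the results was not tested. Without knockout array 2 the median change of the members was -0.18, and without knockout array 1 it was -0.062.

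**Figure D3:**
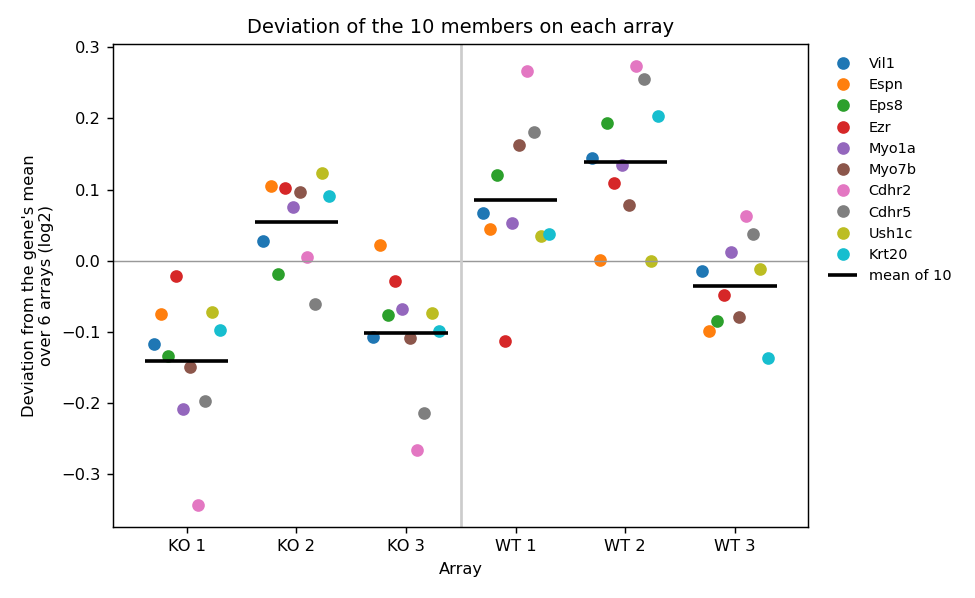
Deviation of each brush border gene from its own mean over the 6 arrays (log2), by array, with the mean of the 10 genes as a black line. The mean on knockout array 2 (0.055) lies above that on wild type array 3 (-0.036), while Cdhr2 and Cdhr5 stay higher on every wild type array than on any knockout array.

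Vil1 followed the other members most closely over the 6 arrays (Pearson r = 0.98 with the mean of the other 9), and Ezr (0.31) and Espn (0.46) the least. Outside the 10, genes were ranked by likeness to the mean of the members, with predicted genes (Gm and Rik names) left out. The 5 highest were Slc9a3r1 (r = 0.99), Olfr834, Plxna2, Zfp160 and Scarb2 (0.99 each). Slc9a3r1 encodes EBP50, the scaffold that ezrin binds under the apical membrane. These are descriptions over 6 arrays that share genotype and array differences, and the 5 were picked as the highest among all genes ranked. Slc9a3r1 itself read 10.82, 10.998 and 10.86 in the knockout and 11.05, 11.08 and 10.90 in wild type, and its groups overlapped (-0.12 ± 0.077, limma adjusted p = 0.57). Olfr834 lay at 2.59 to 2.83 on all arrays, far below the array median.

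A wider list of 100 brush border and enterocyte genes, 92 of them measured, gave 2 lower and 0 higher calls, beside 0.712% called lower over all genes. At an unadjusted p under 0.05 it had 18 lower, beside 5.62% of all genes lower, and 3 higher, with 13.3% of all genes in either direction. In 29 genes all knockout arrays lay below all wild type arrays, beside 7.98% of all genes, and in 4 all lay above, with 19.4% of all genes apart in either direction. The 2 called were Calml4 and Aqp8, a water channel of the colonocyte surface. Aqp8 read 10.53, 10.54 and 11.04 in the knockout, against 11.57, 11.60 and 11.35 in wild type, with no overlap. It fell by 0.80 ± 0.14 on the log2 scale (limma adjusted p = 0.032), and the call was lost in 4 of the 6 fits with 1 array fewer (adjusted p up to 0.13) and with a replicate block (adjusted p = 0.077). Leaving out wild type array 2, or either of knockout arrays 1 and 2, left 0 of the list called by limma, and leaving out wild type array 1 or knockout array 3 left 1.

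By role, apical membrane proteins had the lowest median change, -0.16, with 15 of 17 changes below 0. Besides Aqp8 they included Car4, a membrane-bound carbonic anhydrase, which read 11.99, 12.31 and 12.17 in the knockout, against 12.72, 12.81 and 12.52 in wild type. Its groups did not overlap, and with -0.52 ± 0.10 it lay just outside the threshold (limma adjusted p = 0.051). Motors and adhesion partners had a median of -0.14, with 9 of 10 changes below 0, among them Calml4 and the photoreceptor protocadherin gene Cdhr1 (-0.25 ± 0.062, limma adjusted p = 0.10). Cdhr1 lay near the array median, at 6.44 to 6.78.

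Terminal web and keratin genes, which form the mat in which the bundles are rooted, had a median of 0.022 with 6 of 15 changes below 0 and no unadjusted p under 0.05. Krt7 (0.20 ± 0.086) and Krt18 (0.18 ± 0.081), keratins of simple epithelia, had the smallest p among them, with overlapping groups and limma adjusted p = 0.38 and 0.39. The other actin and tip genes had a median of -0.046 over 13 genes. Their extremes were Eps8l3, an Eps8 relative (-0.24 ± 0.071), and Baiap2l2, an epithelial protein of the family that shapes plasma membrane (0.23 ± 0.086), with groups that did not overlap and limma adjusted p = 0.18 and 0.29.

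Linkers and their kinases had a median of -0.10 over 10 genes. Radixin (Rdx, -0.29 ± 0.068) and moesin (Msn, -0.22 ± 0.074), the ezrin relatives, were lower on all knockout arrays without being called (limma adjusted p = 0.096 and 0.23), whereas the groups overlapped for Ezr. Moesin is abundant in stromal and immune cells, and Msn lay near the array median, at 6.22 to 6.62. Apical trafficking genes, a group that also held ion exchangers, had a median of -0.030 over 12 genes. Its smallest p belonged to Spint2, a protease inhibitor whose loss causes congenital sodium diarrhoea in humans (-0.27 ± 0.059). Next was Slc26a3, the chloride-bicarbonate exchanger of the surface (-0.36 ± 0.10), and neither was called (limma adjusted p = 0.079 and 0.16). Spint2, Slc26a3 and the exchanger Slc9a3 (limma adjusted p = 0.20) were lower on all knockout arrays, as were 7.98% of all genes. Vamp7 (0.20 ± 0.070) and Vamp8 (0.11 ± 0.065) were higher on all, with 19.4% of all genes apart in either direction (limma adjusted p = 0.26 and 0.53). Slc9a3, Vamp7 and Vamp8 were named after their values were seen.

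Transcription factors of enterocyte differentiation had a median of -0.034 over 15 genes, with none called. Cdx2, the caudal factor that specifies intestine, read 10.17, 10.23 and 10.07 in the knockout, against 10.01, 9.90 and 9.71 in wild type. All knockout arrays were higher, and the difference of 0.28 ± 0.088 was not called (limma adjusted p = 0.20). Mrtfb, a cofactor of serum response factor, differed by -0.23 ± 0.059 (limma adjusted p = 0.12) on the brightest of its 3 probe sets and by -0.099 on their mean (limma adjusted p = 0.52).

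**Figure D4:**
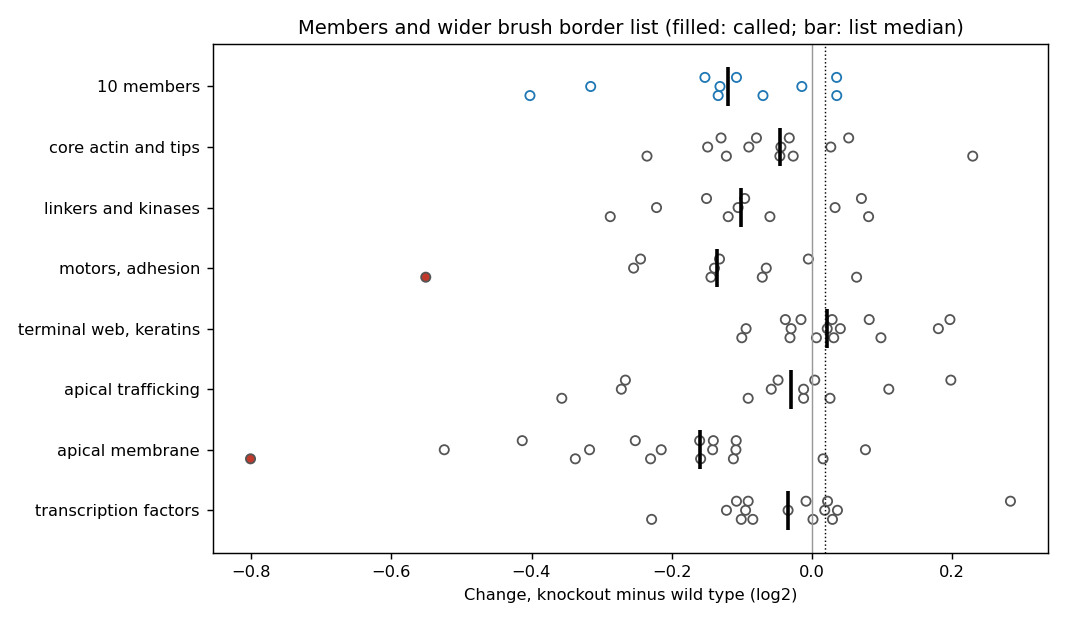
Change in log2 expression, knockout minus wild type, of each gene in the 10 members and in the 7 groups of the wider list, with a bar at each group's median, called genes filled and a dotted line at the median of all genes (0.018). Apical membrane proteins lie furthest to the left (median -0.16) and terminal web and keratin genes are centred near 0 (median 0.022).

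Other cell types were read from their markers. The sum over 10 markers of enteroendocrine and tuft cells was 2415 to 3014 in the knockout, against 3175 to 3986 in wild type, with only Pyy called, as lower. Their median change was -0.089. Such sums weigh the brightest markers most, and no sum without Pyy was made. That over 9 goblet cell markers was 52038 to 54229 in the knockout and 48590 to 54773 in wild type, with none called. That over 9 markers of small intestine enterocytes, with Fabp6, Lct and Sis below the array median, was 4908 to 5778 in the knockout and 4421 to 5642 in wild type, with Rbp2 called lower. The sum over 8 neutrophil markers was 1780 to 2565 in the knockout, against 3696 to 4775 in wild type, without overlap and with Ly6g called lower. Only Ly6g of the 8 lay above the array median, and the sum over the other 7 was 258 to 279 in the knockout and 235 to 262 in wild type. The part of these differences in the brush border values was not tested.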

How the data were processed

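RNA of colon epithelium was hybridised to Affymetrix arrays, 3 for the knockout and 3 for wild type. The deposited values are log2 and were made by the authors with RMA, per the submitters' processing notes; their range gave the scale, and the sources used here give no software version or build. They were used as deposited. The platform annotation named 1 gene for 21789 of 35556 probe sets, several for 1621 and none for 12146, and symbols were updated through the RefSeq table of GRCm38.p6. For each of 19936 genes the brightest probe set on average was used.

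Genotypes were compared over all genes with limma 3.58.1 (R 4.3.3; lmFit with eBayes, two-sided, Benjamini-Hochberg over all genes, called at an adjusted p under 0.05). The method was also run on simulated data with independent normal noise for each gene. That noise lacks shifts that genes share on an array, so no support is drawn from it. Summed marker signals are sums of 2 to the power of the log2 value. Start regions were searched on both strands.

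The members, the wider list and the markers were chosen with earlier results of these data known. Named from the wider list are its called genes and, per group, the 2 with the smallest p; any other gene was picked later, as stated beside it. Alternative settings were a replicate block, other normalizations, filters on dim genes, other variance priors, array weights, the mean of probe sets and each array left out. Python 3.11.15 was used for joins and plots. No batch is given in the labels, and the number of arrays limits the precision.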

Additional observations from a re-analysis of the deposited data

How the results depend on the processing

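The number of brush border members called was 0 as reported and in all alternatives but 2: it was 1 (Cdhr5) without the dimmest 50% of genes, where fewer genes were tested, and 2 (Cdhr2 and Cdhr5) with an intensity trend. All genes called numbered 325 (1.63%), and 69 to 303 with an array left out. They numbered 598 of 9968 tested (6.00%) without the dimmest 50%, and 614 (3.08%) with an intensity trend. Without the dimmest 25% of genes, 449 of 14952 tested (3.00%) were called. The wider list had 2 called, and 4 without the dimmest 25% of genes, 8 without the dimmest 50%, 7 with an intensity trend and 0 to 2 with an array left out. The median change of the members lay between -0.18 and -0.062 when an array was left out, and stayed within the spread between arrays (0.097) of its main value in all alternatives. Of 150 comparisons of single members with their reported values, 140 kept direction and call, 3 gained the call and 7 changed sign, none of them called: Espn without knockout array 2 (-0.0086, the lowest of a range up to 0.081) or wild type array 3 (-0.0056), Ezr without knockout array 2 (-0.0068) and without wild type array 1 (-0.013, in a range up to 0.099), Ush1c without knockout array 1 or 3 (both 0.018, in a range down to -0.080) and Krt20 without wild type array 2 (0.015, in a range down to -0.16). The called genes Calml4 and Aqp8, for which the same settings were added after seeing the data, kept their direction throughout and each lost the call in 5 of 15. The causes were not tested.

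The labels number the arrays of both genotypes alike. Same-numbered arrays deviated together with r of -0.10, 0.15 and 0.15 over genes, and arrays of differing number with r from -0.26 to 0.12. Not every array correlated best with its own number. With 3 arrays a group, these values cannot decide whether the numbers pair the arrays. With the replicate number as a block, 0 members, 1 gene of the wider list (Calml4) and 217 genes in all were called, and Aqp8 had an adjusted p of 0.077.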
